A study of Mus musculus with 16 samples.

Results

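Adenoma cells from 4 mice that carry 1 Apc1638N allele (Apc+/1638N) were compared with wild-type small intestinal epithelium from 2 mice. That epithelium was grown as organoids without myofibroblasts. The adenomas are named as small intestinal, which levels in P34 and P36, given below, go against in part. The members were chosen by the array titles: the 6 arrays of tumour from Apc mice and the 2 arrays of crypt monoculture, 8 of the 16 arrays of the series. Arrays c1a with c1b and c3a with c3b were technical repeats of animals P21 and P34 and were averaged, which left 6 biological samples of 14. The groups used were wild-type epithelium alone (P28 and P30), wild-type epithelium of the same 2 mice in indirect co-culture with myofibroblasts, and Apc+/1638N adenoma (P21, P23, P34 and P36). All animals were labelled male C57Bl/6 mice, killed at 8 to 10 weeks. Co-cultured organoids grew in Matrigel under a membrane insert with wild-type intestinal myofibroblasts for 24 h, and the 3 myofibroblast cultures alone and 3 in co-culture entered the filter on dim genes, the choice of probe set, the shared estimate of spread and the marker check. The labels describe the culture of wild-type crypts. They do not say whether or how the adenoma cells were cultured, so genotype, tumour and culture state cannot be told apart here. Adenoma source names carry "n=3", and the titles of P21 and P23 carry "T2", neither of which is explained. Nothing in the labels gives the number of lesions behind a sample, and p-values measure the spread between these samples.

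Apc is the scaffold of the complex that marks beta-catenin for destruction, and cells that lose it keep Wnt target genes on without the ligand. In the normal small intestine Wnt signals keep stem and transit-amplifying cells dividing at the crypt base, and cells that leave the crypt stop dividing and mature into absorptive enterocytes or into goblet, Paneth, enteroendocrine or tuft cells. Apc1638N is a truncating allele, and mice with 1 copy of it develop intestinal adenomas. Organoids grown from wild-type crypts hold both crypt-like buds and a differentiated compartment.

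Levels are log2 probe set values, so a difference of 1 is a doubling, and a level of a single gene is never set against that of another gene. Values are given in the order P28, P30 for epithelium alone and P21, P23, P34, P36 for adenoma. The level that 30 percent of probe set means did not exceed, 2.67, is called dim. A gene was called when limma's moderated test gave a Benjamini-Hochberg adjusted p under 0.05 over 18095 tested genes. In these bulk samples fewer cells of a type and less RNA per cell cannot be told apart.

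The samples did not all sit where their labels place them. The P28 epithelium had Xist at 8.04 alone and 7.57 in co-culture and Eif2s3y, a Y-linked gene, at 3.05 and 2.89, although it was labelled male. The P30 epithelium and all 4 adenoma animals had Xist at 2.81 or less and Eif2s3y at 7.37 or more. The Pl_III myofibroblasts, likewise labelled male, had Xist at 8.25 alone and 8.29 in co-culture and Eif2s3y at 2.53 and 3.20. Among adenoma animals the SD of gene-wise differences was 0.29 between P21 and P23 and 0.31 between P34 and P36, but 0.65 to 0.70 across these pairs. Repeat arrays of 1 animal differed by 0.28 in both P21 and P34, so the animals of a pair lay hardly farther apart than repeat arrays, and that they are separate animals rests on the labels alone. The 2 epithelium cultures differed by 0.41, and each adenoma from each of them by 1.25 to 1.42. So the library labelled P28 is a culture whose sex-linked genes go against its label, and adenoma was a set of 2 unlike pairs. Each test counts the 4 adenoma animals as separate samples. If the animals of a pair are not separate, the adjusted p-values given can be too small and the calls too many. That holds also with 1 pair as the only adenomas.

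Mean levels of epithelial and fibroblast markers lay near those of epithelium alone, though lower for epithelial markers in P34 and P36. Of 18 epithelial markers 4 were higher and 4 lower in adenoma. That is near the shares of all genes, 22.5% higher and 18.5% lower, and nothing is read from the count. The mean level of these markers was 10.40 and 10.49 alone, 10.53 and 10.57 in P21 and P23, and 9.72 and 9.57 in P34 and P36. Epithelial Cdh1 was at 11.34 and 11.49 alone and at 11.80, 11.91, 11.99 and 11.84 in adenoma, and Krt8 at 12.20 and 12.22 against 11.99 to 12.32. The intestinal cadherin Cdh17 was at 12.02 and 12.01 alone, 11.14 and 11.11 in P21 and P23, but 6.34 and 6.50 in P34 and P36. None of 18 fibroblast markers was higher in adenoma. Their mean level was 3.14 to 3.39 in adenoma, 3.47 and 3.54 in epithelium alone and 9.42 to 9.96 in the myofibroblast cultures. Col1a1, a fibroblast collagen, stood at 3.80 to 4.35 in adenoma against 12.19 to 12.55 in myofibroblasts. The pan-leukocyte gene Ptprc was at 3.06 to 3.40 in adenoma and 2.87 and 2.86 in epithelium alone. The list of red blood cell genes had no gene named on this array and was not analysed here.

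Of the 18095 genes, 4069 were higher (22.5%) and 3353 lower (18.5%) in adenoma, and the median difference of all genes was -0.03. At an unadjusted p under 0.05, 4554 were higher and 4045 lower. These shares called are the background for every count that follows. All 4 adenoma animals lay above both epithelium cultures for 4045 of the genes called higher and below both for 3330 of those called lower. Over all 18095 tested genes they lay above both for 5198 and below both for 5015. This order was thus common among genes not called as well, and it is no separate support for the calls. Falls were deeper than rises: 270 genes fell by 4 or more against 90 that rose by as much, and 96 fell by 6 or more against 5. A fall that ends near the dim level is limited in size by that level. In 238 of the genes called lower all 4 adenoma animals were at or under it. Of all called genes 3267 differed by less than 1. Without the P28 culture 3185 genes were called higher and 2545 lower, of which 3138 and 2389 were among the genes called with it. With P21 and P23 as the only adenomas 3967 were higher and 3106 lower, and with P34 and P36 alone 3915 and 3014. With either epithelium culture left out, limma no longer called Anxa13, Atoh1, Bambi, Cdh17, Csnk1a1, Efnb1, Hoxa2, Insig1, Lrp6, Muc13, Mvk, Myo7b, Nkd1, Nqo1, Sult1d1, Tnfrsf10b and Adgre1. Calls lost only without P28 were Acta2, Apcdd1, Cdx2, Esrp1, Fzd2, Mdm2, Pdx1, Pygo2, Slc7a11, Tgfb3, Trp53inp1 and Vsig1, and only without P30 Hoxd13, Slc10a2, Timp3 and Wif1. Leaving out an adenoma animal ended calls of Atoh1, Cdh17, Muc13 and Myo7b (P34 or P36), of Nkd1, Slc10a2 and Sult1d1 (P21 or P23), of Nqo1 (P21 or P23), of Csnk1a1 (P21), of Hoxa2 (P21 or P34), and of Adgre1 and Insig1 (P21, P23 or P34). With P21 and P23 as the only adenomas the calls of Acta2, Bambi, Efnb1, Hoxa2, Insig1, Pdx1, Slc7a11 and Vsig1 were lost, and those of Aldh1a1, Bop1, Defa24, Gata4, Lef1, Lgr5 and Sesn2 were gained. With P34 and P36 alone the lost calls were Adgre1, Csnk1a1, Hoxa2, Insig1, Lrp6, Mdm2, Mvk, Nkd1, Nqo1, Slc10a2 and Tnfrsf10b, and the gained ones Apc, Cldn18, Cldn3, Defa24, Dusp6, Epcam, Fcgbp, Gkn2, Lyz1, Mmp7, Muc1, Muc5ac, Olfm4, Sox2 and Tff1. Leaving out P21 or P23 was enough for Cldn18, Cldn3, Defa24, Fcgbp, Gkn2, Muc1, Muc5ac, Olfm4 and Tff1 to be called, as was leaving out P21 for Sox2, P23 for Lyz1, and P36 for Aldh1a1 and Gata4. Without P28 Cck was called, and without P30 Igf2 and Smad4. With the 3 epithelial groups alone in the fit, Aldh1a1, Cck, Cdh1, Cdkn2b, Fzd6, Klf5, Pcna, Pmaip1 and Sprr1a were called, and Acta2, Adgre1, Atoh1, Cdh17, Muc13, Myo7b, Nkd1, Nqo1, Slc10a2, Sult1d1 and Vsig1 were not.

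Some genes had several probe sets that disagreed, and the brightest is given. The other probe set differed by -0.03 for Msn, -0.52 for Cyp2c29, -0.50 for Adh1 and 0.14 for Ccn2. With all probe sets averaged the differences were 3.25 for Msn, -4.57 for Cyp2c29, -4.02 for Adh1, 2.36 for Ccn2, 0.94 for Etv5, -1.80 for Irf8, -0.70 for Lrp6, 1.16 for Plagl1 and 2.74 for Sox21, and each was still called.

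Genes of the absorptive enterocyte were the deepest falls. Brush border hydrolases digest sugars and peptides at the cell surface, and 14 of 15 fell, with a median of -6.11. Sis (chr3:72888557-72967863), sucrase-isomaltase, was at 12.47 in both epithelium cultures and at 2.95, 2.91, 2.46 and 2.10 in adenoma (-9.86, SE 0.21, adjusted p = 2.6e-11). The aminopeptidase Enpep stood at 11.87 and 11.56 alone and at 2.92, 3.07, 2.83 and 3.04 in adenoma. The dipeptidyl peptidase Dpp4 went from 10.76 and 9.67 to between 2.55 and 3.42, and the meprin subunit Mep1b from 10.88 and 10.52 to between 2.82 and 4.06. Trehalase, Treh, and intestinal alkaline phosphatase, Alpi, fell by 6.29 and 6.53. In each of these 6 genes the highest adenoma animal was below the lower epithelium culture by more than 5 units. Alpi kept a level of 5.72 to 6.03, well above dim, in all 4 adenoma animals. Tmprss15, the enteropeptidase gene, was near dim in both groups (2.65 and 2.68 against 2.28 to 2.54) and was not called.

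Genes of the brush border scaffold fell as well. Of 13 microvillus genes 11 fell, with a median of -2.44. Myo1a, the motor that ties the actin core to the membrane, went from 11.74 and 11.59 to 8.21, 8.19, 8.40 and 8.71. Cdhr2 and Cdhr5, the protocadherins that link neighbouring microvilli, fell by 3.52 and 3.84. Ush1c and Myo7b, which anchor those links, split the adenoma animals. Ush1c was at 9.92 and 9.87 alone, 7.19 and 6.93 in P21 and P23, and 3.22 and 3.43 in P34 and P36. Myo7b was at 10.00 and 10.03 alone, 8.76 and 8.71 in the T2 pair and 3.92 and 3.65 in the other. Ezr, ezrin, the general linker of membrane to actin, was at 11.84 and 11.76 against 11.70 to 12.10 and was not called.

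Of 21 nutrient and ion transporters 17 fell and 1 rose, with a median of -4.15. The chloride-bicarbonate exchanger Slc26a3 was at 10.64 and 10.63 alone and at 2.90, 3.18, 2.77 and 2.74 in adenoma (-7.74, SE 0.14, adjusted p = 8.3e-12). The neutral amino acid carrier Slc6a19 fell by 7.62, the fructose carrier Slc2a5 by 7.61, the cystine carrier subunit Slc3a1 by 7.30, the basolateral glucose carrier Slc2a2 by 7.25 and the peptide carrier Slc15a1 by 6.95. All 6 had every adenoma value at 4.51 or less. The member that rose was Cybrd1, a ferric reductase of iron uptake, from 3.32 and 3.21 to 7.60, 7.87, 8.99 and 9.11. Slc40a1, the iron exporter, was at 5.69 and 7.74 alone and at 7.48 to 8.67 in adenoma and was not called (adjusted p = 0.35).

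All 19 fat absorption genes fell, with a median of -4.12. Apoa4, an apolipoprotein of chylomicrons, went from 12.58 and 12.83 to 4.25, 4.64, 4.15 and 4.35, and Mttp, which loads lipid onto apolipoprotein B, from 12.32 and 12.30 to between 4.36 and 4.83. The cholesterol uptake protein Npc1l1 was at 11.58 and 11.30 alone and at 3.77 to 4.46 in adenoma. Its export partner Abcg8 fell by 7.28. Of 19 genes of fatty acid oxidation and ketogenesis 18 fell, with a median of -1.86. Their regulator Ppara went from 8.73 and 9.14 to 3.47, 3.78, 3.20 and 3.69, while the enzyme Hadh, still abundant, went from 12.27 and 12.32 to between 9.92 and 10.21. Pdk4, a fasting-induced kinase of the same list, was at 3.13 and 3.96 against 3.17 to 3.74.

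Enzymes that detoxify or convert small molecules fell together. Of 30 genes of drug and steroid metabolism 29 fell, with a median of -4.77. Cyp2c29 was at 10.86 and 11.55 alone and at 2.29 to 2.72 in adenoma, the alcohol dehydrogenase Adh1 fell by 7.54, and the efflux pump Abcc2 went from 11.44 and 11.59 to 5.19, 4.69, 3.56 and 3.40. The exception was Cyp1b1, a cytochrome more usual in stromal cells, at 3.58 and 3.23 alone and at 9.01, 9.18, 8.82 and 8.16 in adenoma. Sult1d1, a sulfotransferase, divided the adenoma animals. It was at 10.37 and 10.39 alone, 3.09 and 3.06 in P21 and P23, and 8.60 and 9.15 in P34 and P36.

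Retinoid genes moved in both directions, 7 lower and 3 higher of 18. The enterocyte retinol carrier Rbp2 went from 12.46 and 12.39 to 3.73, 4.15, 3.40 and 3.67. Lrat, which esterifies retinol, fell by 5.18, and Bco1, which cleaves beta-carotene, was at 10.52 in P28, 8.49 in P30 and 2.61 to 3.54 in adenoma. Stra6, a retinol uptake receptor, rose from 3.70 and 3.81 to 8.31, 7.85, 7.15 and 7.59. Aldh1a1, which makes retinoic acid, was at 12.46 and 12.34 against 10.26, 9.56, 11.26 and 11.51 and was not called (adjusted p = 0.0606), but was with the animal as a random block (adjusted p = 0.0368). Of 6 ileal bile acid genes, Slc51a and the receptor Nr1h4 fell by 4.63 and 3.55, and the uptake carrier Slc10a2 rose by 0.98.

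Of 9 butyrophilin-like genes and related ligands 6 fell. Btnl1 (chr17:34377123-34386162), which selects gamma-delta T cells in the gut, was at 10.43 and 10.24 alone and at 2.21, 2.01, 2.12 and 2.07 in adenoma (-8.23, SE 0.13, adjusted p = 6.8e-12), and Btnl2 and Clec2h fell by 5.98 and 8.08. Of 27 glycolysis and hypoxia genes 9 fell and 4 rose. In that list G6pc, the last enzyme of glucose release, went from 9.49 and 9.79 to 3.08, 2.84, 3.32 and 2.99, and Fbp1 and Pck1, of the same route, fell by 5.28 and 3.12. Gapdh, of glycolysis, was at 12.61 and 12.69 against 12.60 to 12.64.

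**Figure D1:**
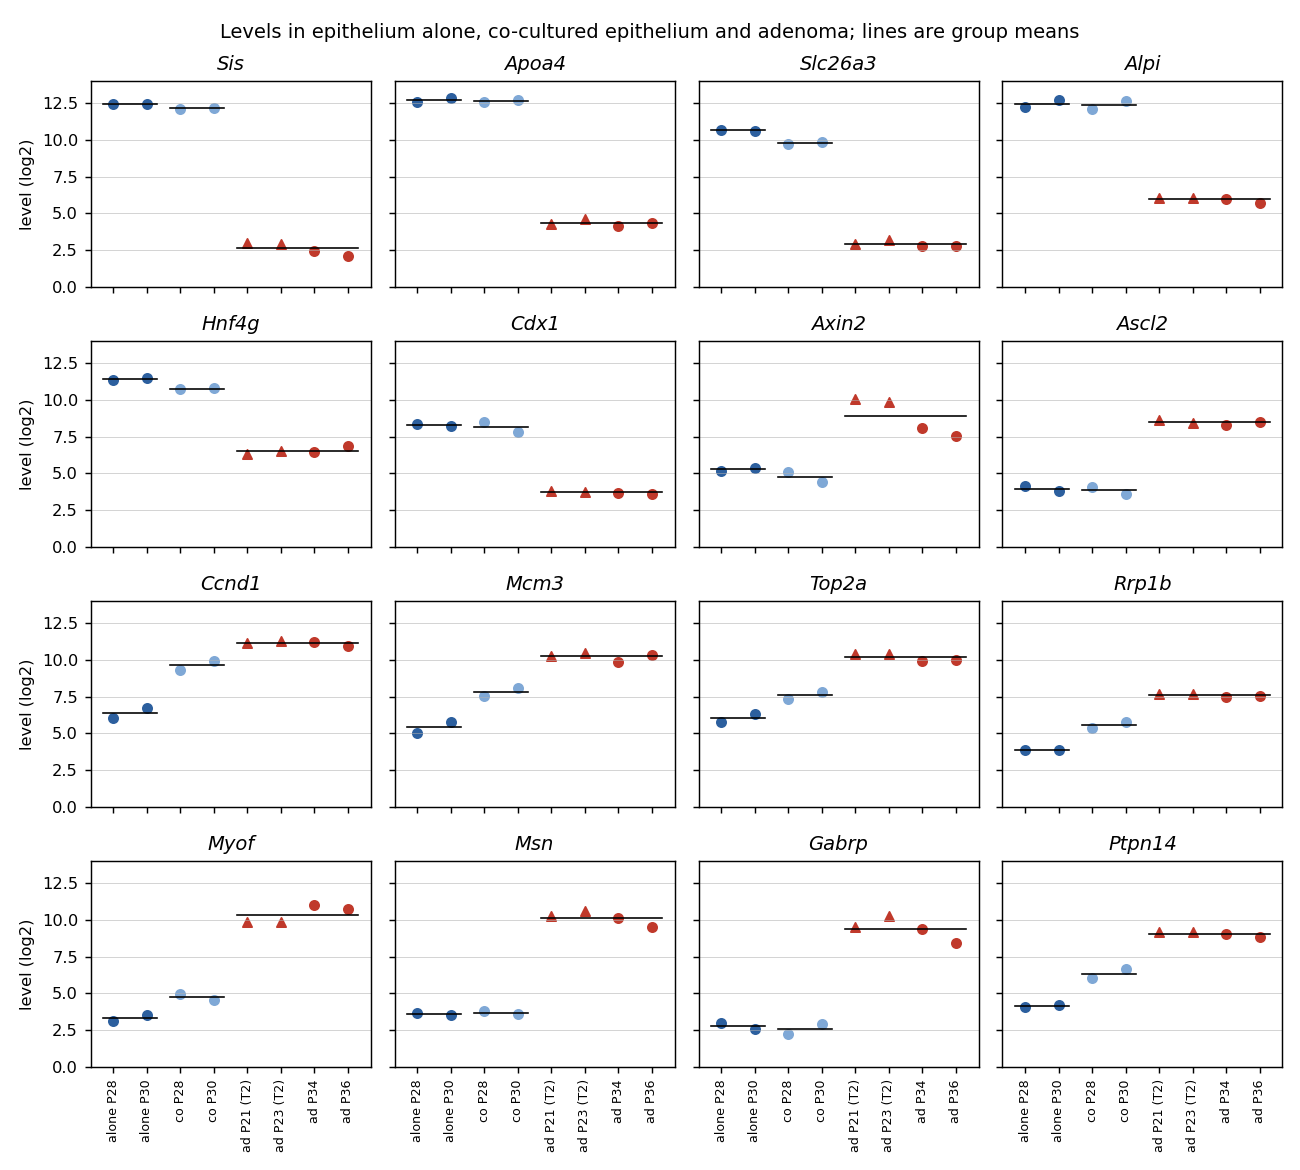
Level (log2, vertical axis) of 16 genes in each sample: epithelium alone (dark blue), co-cultured epithelium (light blue) and adenoma (red, triangles for the animals with T2 in the title), with group means as lines. Sis sits at 12.47 in both monocultures and at 2.95 or less in adenoma, whereas Msn sits at 3.68 or less and at 9.49 or more.

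Because these genes fell together, their promoters were searched for the binding letters of factors known in enterocytes, in the 250 bases before the transcript start that the RefSeq table lists first for each gene, which need not be the outermost one (GRCm38.p6, 13963 tested genes with a promoter, both strands). The HNF4 motif CAAAGTCCA was found before 0.408% of all tested genes, 0.809% of those lower, 0.123% of those higher and 2.05% of the genes lower by 2 or more. The HNF1 motif GTTAATNAT was found before 0.594% of all, 0.919% of lower, 0.216% of higher and 2.39% of genes lower by 2 or more. The CDX2 motif TTTATGG was found before 1.83%, 2.02%, 1.27% and 3.25% in the same order. These are shares of letter matches, without a test, and some rest on few promoters. In the same order, promoters with a match numbered 57, 22, 4 and 12 for HNF4. For HNF1 they numbered 83, 25, 7 and 14, and for CDX2 255, 55, 41 and 19. Shown for HNF4 and HNF1 are the 3 members of the gene lists with the largest falls among those with a match, with the match in capitals. The Slc26a3 stretch lies inside the gene, before an internal start.
Slc3a1, chr17:85028097-85028346, + strand: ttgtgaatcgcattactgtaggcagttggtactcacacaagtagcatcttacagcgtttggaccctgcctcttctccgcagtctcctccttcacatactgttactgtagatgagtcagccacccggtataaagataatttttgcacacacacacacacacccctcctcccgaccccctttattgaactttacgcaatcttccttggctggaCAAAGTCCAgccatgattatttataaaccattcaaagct
Alpi, chr1:87101607-87101856, - strand: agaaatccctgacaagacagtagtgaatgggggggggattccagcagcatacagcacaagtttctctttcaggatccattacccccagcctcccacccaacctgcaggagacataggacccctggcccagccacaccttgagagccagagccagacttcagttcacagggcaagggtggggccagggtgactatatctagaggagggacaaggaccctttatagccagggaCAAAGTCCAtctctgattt
Treh, chr9:44672983-44673232, + strand: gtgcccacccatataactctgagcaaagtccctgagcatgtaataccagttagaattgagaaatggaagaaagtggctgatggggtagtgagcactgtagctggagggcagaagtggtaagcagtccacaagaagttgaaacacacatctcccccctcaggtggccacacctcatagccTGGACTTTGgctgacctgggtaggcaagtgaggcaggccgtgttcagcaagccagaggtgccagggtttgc
Slc26a3, chr12:31437969-31438218, + strand: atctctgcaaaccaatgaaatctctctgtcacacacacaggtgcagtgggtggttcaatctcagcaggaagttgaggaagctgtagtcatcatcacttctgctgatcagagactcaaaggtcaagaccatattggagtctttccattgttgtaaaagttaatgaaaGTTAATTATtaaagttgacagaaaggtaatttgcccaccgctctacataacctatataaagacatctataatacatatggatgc
Npc1l1, chr11:6230246-6230495, - strand: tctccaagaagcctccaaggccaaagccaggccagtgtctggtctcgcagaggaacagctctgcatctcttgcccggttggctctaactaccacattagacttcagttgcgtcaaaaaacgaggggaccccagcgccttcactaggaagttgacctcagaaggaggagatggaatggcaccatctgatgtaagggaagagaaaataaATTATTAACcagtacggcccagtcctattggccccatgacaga
G6pc, chr11:101367466-101367715, + strand: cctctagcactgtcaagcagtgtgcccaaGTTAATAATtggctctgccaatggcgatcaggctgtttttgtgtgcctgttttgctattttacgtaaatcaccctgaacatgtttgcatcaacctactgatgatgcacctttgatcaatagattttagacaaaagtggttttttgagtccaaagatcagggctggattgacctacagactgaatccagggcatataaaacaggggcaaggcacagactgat

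The factors that read such promoters were themselves unequal. Of 24 intestinal transcription factors 11 fell and 4 rose. Hnf4g (chr3:3508030-3659800), the HNF4 form typical of villus cells, went from 11.38 and 11.51 to 6.34, 6.50, 6.42 and 6.82, whereas Hnf4a went from 11.08 and 11.15 to 10.29, 10.27, 9.48 and 9.63, a fall of 1.20. Likewise Cdx1 went from 8.33 and 8.23 to 3.79, 3.73, 3.67 and 3.57, and Cdx2 fell by 1.72. Creb3l3, a regulator of lipid genes, fell by 6.65, the vitamin D receptor Vdr by 5.12, Nr5a2 by 4.74 and Maf, of late villus cells, by 4.39. Gata6 fell by 1.48, while Gata4 was at 9.68 and 9.84 alone, 8.04 and 7.87 in the T2 pair and 9.51 and 9.80 in the other pair. The 4 that rose were Sox9, the crypt factor, by 3.51, Foxa1 by 2.02, Foxa2 by 1.88 and Gata5 by 1.12. Klf5 was at 11.27 in both cultures against 10.75 to 11.04 and was not called, nor was Klf4 (7.94 and 8.03 against 7.44, 7.67, 9.42 and 9.59).

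Secretory lineage genes also fell. Of 21 enteroendocrine genes 12 fell and none rose, with a median of -0.88. Chgb, a granin of secretory granules, went from 8.67 and 9.16 to 2.66, 3.17, 2.92 and 2.58, and Chga from 8.20 and 9.16 to between 3.37 and 3.96. Tph1, which makes serotonin, Ghrl, ghrelin, and Sct, secretin, fell by 4.44, 4.43 and 3.65. Cck was at 4.62 in P28, 7.14 in P30 and 3.75 to 4.05 in adenoma and was not called, but was without P28 (-3.28, adjusted p = 0.0192). Of 16 tuft cell genes 11 fell and 1 rose, with a median of -0.92. Rgs13 went from 4.41 and 4.72 to between 2.42 and 2.97, and the taste G protein subunit Gnat3 fell by 1.68.

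Goblet and Paneth genes divided the adenoma animals along the titles. Of 17 goblet genes 9 fell and none rose over the 4 animals, and 12 were higher in P21 and P23 than in P34 and P36. Over all genes the test of P21 and P23 against P34 and P36, in a fit with adenoma as 2 groups, called 3.65% higher and 3.49% lower. That split was chosen after seeing the data. The animals of a pair lay hardly farther apart than repeat arrays, so p-values between the pairs can be too small. The same limit holds for those of Lyz1 and Dusp6 given further on and, as said with the sample checks, for the other tests of adenoma. The mucin Muc2 was at 11.68 and 11.71 alone, 8.13 and 9.38 in P21 and P23, and 3.53 and 3.92 in P34 and P36. Atoh1, the master factor of secretory cells, was at 8.75 and 8.89 alone, 7.89 and 7.85 in the T2 pair and 3.29 and 3.56 in the other. Fcgbp, a mucus protein, was at 12.16 and 12.14 alone, then 11.04 and 11.48, then 4.52 and 4.94. With a difference of 6.53 between the pairs (adjusted p = 3.1e-06), Fcgbp was not called over the 4 animals together (adjusted p = 0.0699).

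Of 15 Paneth genes 10 fell and 1 rose, and 9 were higher in the T2 pair. Lyz1, lysozyme, was at 11.41 and 11.84 alone and at 11.75 and 12.20 in P21 and P23, but at 3.20 and 2.72 in P34 and P36, a difference of 9.02 between the pairs (adjusted p = 3e-09). The defensin Defa24 was at 11.65 and 11.72 alone, 10.05 and 10.75 in the T2 pair and 3.48 and 2.60 in the other. Ang4, another antimicrobial, fell in every animal, from 10.91 and 10.73 to 5.02, 6.42, 2.58 and 2.39. Mmp7, the protease that activates defensins, was above epithelium in P21 and P23 (10.35 and 10.63 against 7.77 and 7.60) and under it in P34 and P36 (3.26 and 3.03). Habp2 was the member that rose, by 2.12. Defensin genes are near-identical copies, so a probe set may read several of them.

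**Figure D2:**
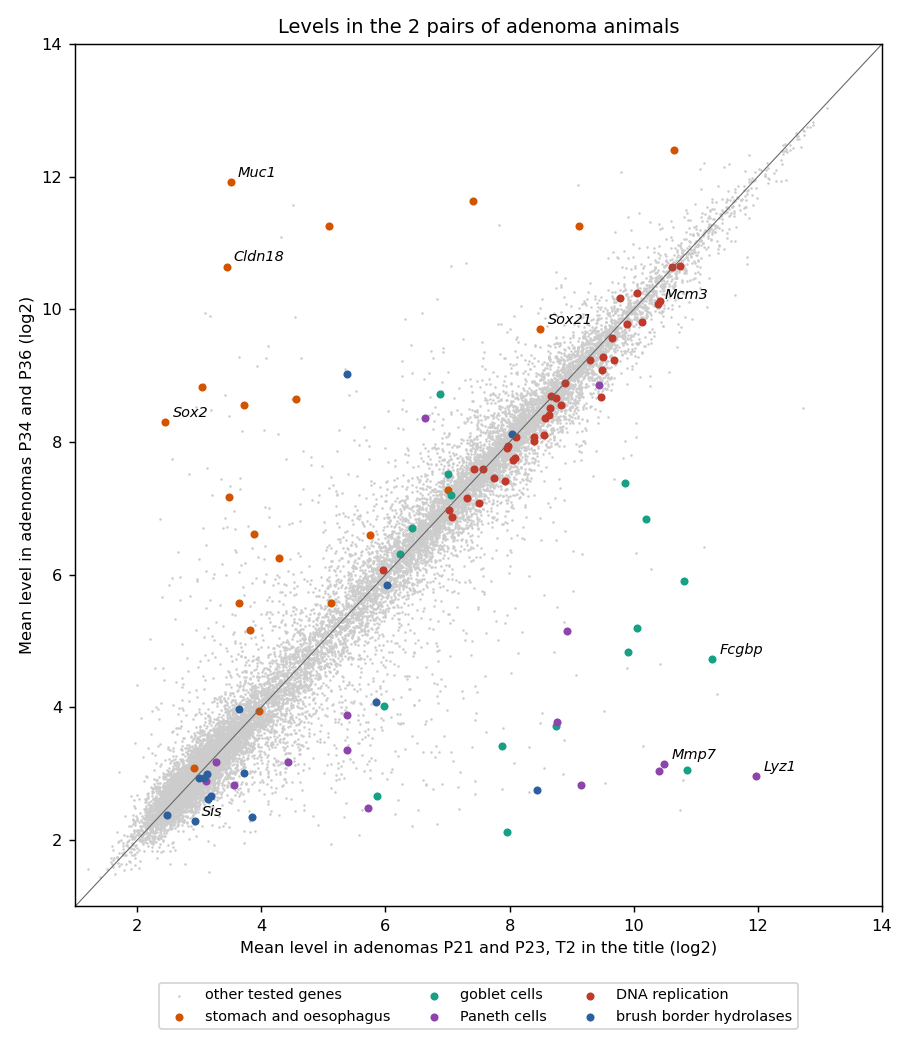
Mean level in adenomas P21 and P23 (horizontal axis, log2) against that in P34 and P36 (vertical axis, log2) for every tested gene, with 5 gene lists coloured. DNA replication genes lie along the diagonal, goblet and Paneth genes such as Lyz1 fall under it, and stomach genes such as Muc1 rise over it.

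Stomach genes divided the animals the other way. The 6 genes singled out first were chosen after their values were seen. Of 21 stomach and oesophagus genes 6 rose and 1 fell over the 4 animals, and 13 were higher in P34 and P36 than in P21 and P23, none the reverse. Their median difference was 0.27 in P21 and P23 and 3.92 in P34 and P36. Muc1, a surface mucin, was at 2.93 and 2.88 alone, 3.10 and 3.91 in the T2 pair, and 11.86 and 11.97 in the other. Cldn18, the stomach claudin, was at 3.33 and 2.77 alone, 3.18 and 3.70 in the T2 pair, and 10.60 and 10.69 in the other. Tff1 (11.16 and 11.34), Muc5ac (8.51 and 9.14), Gkn2 (8.89 and 8.22) and the foregut factor Sox2 (8.32 and 8.28) showed the same order, with every other sample of these 4 genes, co-culture left aside, at 5.19 or less. The squamous factor Trp63 was at 2.84 to 3.17 in adenoma, beside 3.05 and 3.35 alone, and Barx1 at 3.77 to 4.17, beside 4.21 and 4.02, so both overlapped epithelium alone.

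A few stomach-list genes rose in all 4 animals. Sox21 went from 4.20 and 5.43 to 8.28, 8.71, 9.74 and 9.66 (4.28, SE 0.43, adjusted p = 8e-06), Gkn3 from 2.82 and 2.55 to 5.75, 5.74, 6.33 and 6.88, and the protease Ctse from 7.47 and 8.70 to 10.51, 10.80, 12.33 and 12.47. Vsig1 and Pdx1 also rose, but the epithelium cultures were far apart on them: Vsig1 was at 3.23 in P28 and 8.21 in P30, and Pdx1, the duodenal factor, at 3.94 and 6.02. Without P28 the Vsig1 difference was 1.98 (adjusted p = 0.34) and that of Pdx1 1.12 (adjusted p = 0.233), neither called by limma. In P34 and P36 the levels of stomach genes go in part against the name small intestinal used for all 4 adenomas. The region of the intestine or stomach from which each sample came is not given in the labels, and its part in these values was not tested.

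**Figure D3:**
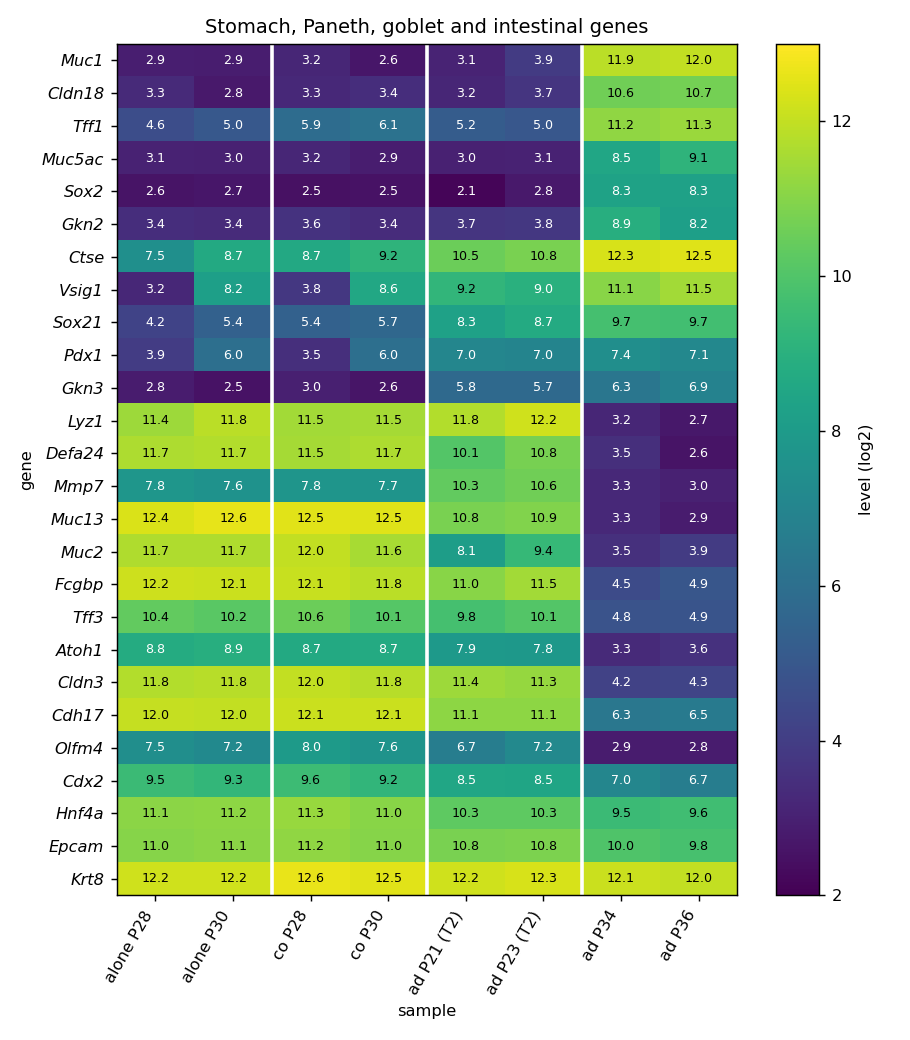
Levels (log2, colour and printed value) of 26 stomach, Paneth, goblet and intestinal genes (rows) in epithelium alone, co-cultured epithelium and adenoma (columns). Muc1 to Gkn2 are at 8.2 or more in P34 and P36, while Lyz1, Defa24, Mmp7 and Muc13 are at 3.5 or less there.

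Crypt stem cell genes rose more often than they fell, 8 against 2 of 17, with a median of 0.95. This median was 1.60 in P21 and P23 and 0.27 in P34 and P36, and 6 of the 17 were higher in the T2 pair and none lower. Ascl2 (chr7:142966822-142969264), the stem cell factor that Wnt maintains, was at 4.15 and 3.76 alone and at 8.65, 8.45, 8.26 and 8.52 in adenoma (4.51, SE 0.29, adjusted p = 2.4e-07). Cdk6, Cdca7 and Slc12a2 rose by 3.33, 3.31 and 2.14. Lgr5, the receptor that marks crypt stem cells, was at 4.25 and 4.17 alone and at 5.09, 4.99, 4.48 and 4.48 in adenoma and was not called (adjusted p = 0.098). Its other probe set differed by 3.35, the mean of both by 1.95 (adjusted p = 7.4e-04), and the T2 pair alone by 0.83 (adjusted p = 0.0247), so for Lgr5 the call depends on the probe set and the pair. Olfm4, another crypt base gene, was at 7.45 and 7.24 alone, 6.66 and 7.16 in the T2 pair and 2.85 and 2.84 in the other. Tert fell by 2.35.

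Of 34 Wnt targets and feedback genes 19 rose and 5 fell, with a median of 1.12, or 1.98 in the T2 pair and 0.74 in the other. Where the pairs differed, the T2 pair was higher: 10 of the 34 were higher in P21 and P23 than in P34 and P36 and none lower. Axin2, the feedback scaffold read as a Wnt gauge, was at 5.16 and 5.37 alone, 10.06 and 9.84 in P21 and P23, and 8.06 and 7.55 in P34 and P36. Nkd1, another inhibitor, was at 3.66 and 3.63 alone, 6.65 and 6.92, then 4.35 and 4.39. Rnf43 and Znrf3, which remove Wnt receptors, rose by 2.55 and 2.19, and Myc by 3.01. Ccnd1 (chr7:144929931-144939831), cyclin D1, did not follow the pairs and stood at 11.11, 11.27, 11.18 and 10.96 against 6.01 and 6.70. Lef1 was at 3.81 and 3.64 alone, 6.27 and 6.03 in the T2 pair and 3.21 and 3.46 in the other. The 5 that fell were Prox1 by 1.73, Efnb1 by 1.19, Bambi by 1.08, Apcdd1 by 1.00 and Wif1 by 0.88.

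Of 37 genes of the machinery that carries the signal 9 rose, 4 fell and 24 were not called, with a median of 0.21. Among ligand handling genes, Wls, which escorts Wnts to the surface, rose by 2.42 and Porcn, which acylates them, by 1.97, whereas the ligand gene Wnt3 fell by 1.38 from 4.19 and 4.58. Among receptors, Fzd1 rose by 2.27, Fzd2 by 1.19 and Lrp5 by 0.87, while Fzd5, a receptor needed in Paneth cells, fell by 1.65 and Lrp6 by 0.42. Fzd6 was at 6.57 and 6.92 alone and at 8.54, 8.55, 8.35 and 8.24 in adenoma, and its difference of 1.68 was not called with the spread of all 5 groups (adjusted p = 0.0899) but was with the 3 epithelial groups alone (adjusted p = 8.4e-05). Of the destruction complex, Apc itself was at 8.41 and 8.29 alone and at 8.13, 8.29, 8.82 and 9.25 in adenoma (0.27, SE 0.27, adjusted p = 0.472). With P34 and P36 alone Apc was called higher (0.68, adjusted p = 0.0229). Its level does not separate the alleles. Axin1 (0.23), Gsk3b (-0.02) and Ctnnb1, beta-catenin (0.25), were not called, while Csnk1a1 rose by 0.31 and Amer1 by 0.74. In the nucleus, Bcl9l and Pygo2 rose by 0.78 and 0.53, and Tcf7l2 was not called (-0.21).

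Division genes rose together and with little spread between adenoma animals. Of 38 DNA replication genes 37 rose, with a median of 2.59, and none differed between the pairs. Mcm3, a subunit of the replicative helicase, was at 5.04 and 5.79 alone and at 10.28, 10.49, 9.84 and 10.31 in adenoma (4.81, SE 0.46, adjusted p = 5e-06). Mcm5 and Mcm2, of the same ring, rose by 4.42 and 4.18, Rrm2, which makes deoxynucleotides, by 4.27, and the helicase loader Cdc6 by 4.06. Pcna, the sliding clamp, was the exception at 10.40 and 10.20 against 10.64 to 10.79 (0.40, adjusted p = 0.168). All 31 mitosis genes rose, by 2.10 to 4.29. Anln, of the cleavage furrow, went from 4.87 and 5.69 to 9.49, 9.60, 9.57 and 9.62, and Top2a, which untangles chromosomes, from 5.76 and 6.33 to between 9.91 and 10.41. The kinetochore genes Ndc80 and Nuf2 rose by 4.11 and 4.05.

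Of 23 genes of G1 control 15 rose and 3 fell. Cyclin D2, Ccnd2, was at 8.35 and 8.27 against 11.57 to 11.92, cyclin E1, Ccne1, at 4.42 in both cultures against 7.48 to 7.70, and E2f7, a repressor made late in G1, at 4.36 and 4.03 against 7.60 to 7.63. The inhibitors Cdkn1a (11.33 and 11.29 against 10.83 to 11.27) and Cdkn2b (9.72 and 9.26 against 7.45 to 8.62) were not called. The retinoblastoma gene Rb1 fell by 1.80. Nearly the whole ribosome biogenesis list rose, 31 of 32 with a median of 2.16. Rrp1b was at 3.85 and 3.86 alone and at 7.68, 7.64, 7.50 and 7.53 in adenoma, and Nop56, of the complex that methylates ribosomal RNA, at 8.15 and 8.16 against 10.80 to 10.93. Bop1 was not called (0.24).

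The same promoter search was made for E2F, the factor family that times replication genes. TTTCCCGC or TTTGGCGC was found before 2.1% of all tested genes, 3.73% of those higher, 1.73% of those lower, 4.98% of genes higher by 2 or more and 0.513% of genes lower by 2 or more. Among 31 replication genes with a promoter 6 had a match, and none of 27 mitosis genes. Shown are the 3 replication genes with the largest rises among those with a match, which is in capitals. The Cdc6 stretch lies inside the span RefSeq gives the gene, as does most of that of Mcm7 and a part of that of Mcm5.
Mcm5, chr8:75109259-75109508, + strand: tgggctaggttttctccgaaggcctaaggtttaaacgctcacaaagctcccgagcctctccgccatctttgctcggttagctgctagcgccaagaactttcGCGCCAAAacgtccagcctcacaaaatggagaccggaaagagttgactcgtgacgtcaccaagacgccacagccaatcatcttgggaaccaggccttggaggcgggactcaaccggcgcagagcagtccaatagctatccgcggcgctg
Cdc6, chr11:98907901-98908150, + strand: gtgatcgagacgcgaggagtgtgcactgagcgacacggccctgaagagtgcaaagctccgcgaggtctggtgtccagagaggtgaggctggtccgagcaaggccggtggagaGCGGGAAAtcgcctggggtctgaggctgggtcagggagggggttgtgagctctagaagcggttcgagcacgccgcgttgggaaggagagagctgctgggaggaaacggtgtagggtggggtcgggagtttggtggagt
Mcm7, chr5:138171884-138172133, - strand: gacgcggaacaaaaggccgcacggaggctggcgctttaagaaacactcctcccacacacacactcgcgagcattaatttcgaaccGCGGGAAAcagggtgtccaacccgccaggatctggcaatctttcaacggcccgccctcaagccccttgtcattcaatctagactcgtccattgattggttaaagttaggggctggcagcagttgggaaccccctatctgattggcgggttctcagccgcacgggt
For the other motifs searched, the TCF motif ATCAAAG was found before 2.13% of higher, 2.57% of lower and 2.6% of all genes, the TEAD motif GGAATG before 10.3%, 11.4% and 11.2%, and the AP-1 motif TGANTCA before 3.89%, 5.59% and 5.49%. Among genes lower by 2 or more these shares were 2.91% for TCF, 14% for TEAD and 9.57% for AP-1, and among genes higher by 2 or more 2.42%, 12.7% and 4.98%.

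**Figure D4:**
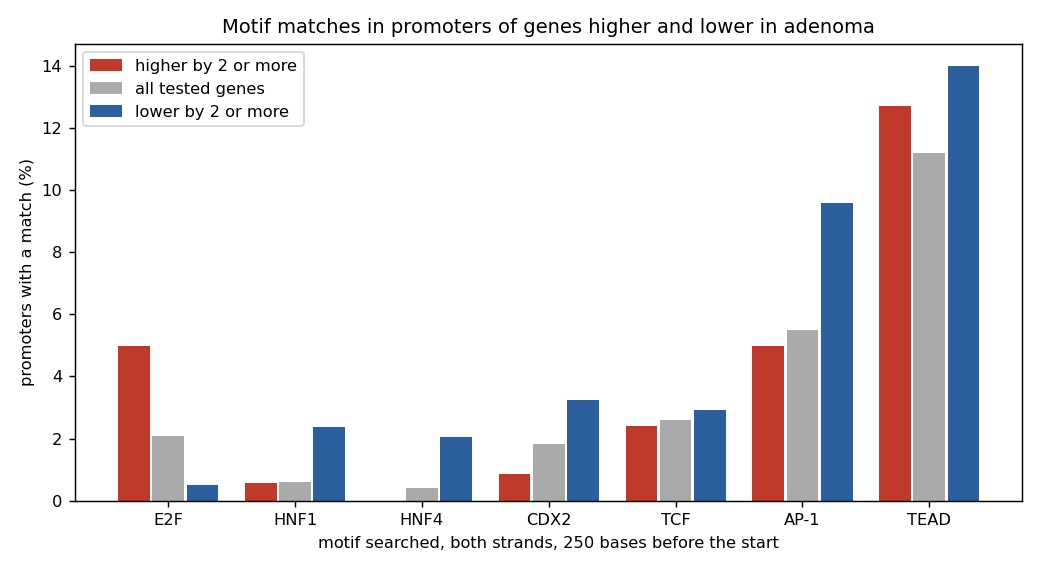
Share of promoters (percent, vertical axis, from 0) with at least 1 match to each motif (horizontal axis) among genes higher by 2 or more, all tested genes, and genes lower by 2 or more. E2F matches stand at 4.98% against 0.513% (35 and 3 promoters), and HNF4 matches at 0 against 2.05% (0 and 12 promoters).

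Of 19 p53 genes 11 rose and 1 fell. Eda2r, a death receptor, was at 2.81 and 4.69 alone and at 7.15 to 7.41 in adenoma, Phlda3, an inhibitor of Akt, rose by 2.63, Plk2 by 2.28 and Aen, a nuclease of p53-driven death, by 2.01. Smaller rises were seen in Trp53inp1 (1.68), Zmat3 (1.53), Ccng1 (1.48), Mdm4 (1.03), Tnfrsf10b (0.95), Mdm2 (0.89) and Ei24 (0.71). Sesn1, a stress-response gene, fell from 8.38 and 8.60 to between 5.20 and 5.62. Pmaip1 (0.60), Sesn2 (0.51), Dcxr (0.32), Btg2 (0.10), Bbc3 (-0.03) and Perp (-0.33) were not called, as was Cdkn1a (-0.24).

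Respiratory chain genes showed small, broad falls against epithelium alone, and fewer against co-culture, as given below. Of 32 respiratory chain subunits 24 fell and none rose, with a median of -0.53. Sdhb, of succinate dehydrogenase, fell most in the list, from 9.63 and 9.56 to 7.45, 7.40, 8.42 and 8.40, and Cyc1 and Sdhc fell by 0.94 and 0.91. In the glycolysis and hypoxia list, beside the genes already given, Pfkfb4, a regulator of glycolysis, fell by 4.16, Ndrg1 by 3.29 and the lactate exporter Slc16a3 by 2.93. All 19 cholesterol synthesis genes had a negative difference, but 3 were called, Insig1 (-1.46), Mvk (-1.23) and Srebf1 (-0.95). Among 15 genes of the NRF2 response, Slc7a11, the cystine importer, and Hmox1 rose by 1.94 and 1.47, while Osgin1, Nqo1, Srxn1 and Gclc fell by 2.65, 1.22, 1.17 and 1.00. The Nqo1 fall was not called in P34 and P36 alone (-0.57, adjusted p = 0.285), nor without the filter on dim genes (adjusted p = 0.0526) or with arrays centred on their medians (adjusted p = 0.0579), and the Slc7a11 rise was not called in P21 and P23 alone (1.36, adjusted p = 0.129).

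Of 28 genes of the YAP pathway, which senses cell tension and contact, 19 rose and 1 fell. Ptpn14, a target that also restrains YAP, was at 4.08 and 4.17 alone and at 9.17, 9.14, 9.03 and 8.82 in adenoma (4.91, SE 0.18, adjusted p = 2.4e-09). Ccn2 and Ccn1, secreted matrix proteins, rose by 4.58 and 4.19, and Ankrd1 by 4.52, with 9.34 in both P21 and P23 and 7.86 and 7.11 in P34 and P36. The partner factors Tead2 and Wwtr1 rose by 3.72 and 3.64, but Wwtr1 was at 4.20 in P28 and 5.33 in P30. The kinase Lats1 and the upstream suppressor Nf2 were not called (-0.13 and -0.21). Of 15 genes of fetal and repairing epithelium 10 rose and 2 fell, with no member differing between the pairs. Gja1, a connexin, rose by 4.53, Basp1 by 4.41, Msln, mesothelin, by 3.82 and Il33 by 3.48, whereas Sprr1a (-0.92) and Emp1 (-0.19) were not called.

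Of 31 actin and membrane linker genes 12 rose and 5 fell. Myof (chr19:37899036-38043577), a membrane repair protein, was at 3.08 and 3.49 alone and at 9.85, 9.82, 10.99 and 10.76 in adenoma (7.07, SE 0.32, adjusted p = 1.3e-08), the largest rise among genes with both means above dim. Msn (chrX:96096045-96168553), moesin, was at 3.68 and 3.53 against 10.26, 10.63, 10.14 and 9.49, beside its relative Ezr, which was not called. Flna, filamin A, Cav2, caveolin 2, and the calponin Cnn3 rose by 3.53, 4.50 and 3.22, and Enah, which extends actin filaments, by 5.11. Gabrp (chr11:33550781-33578978), a subunit of a GABA receptor, belonged to no list and was at 3.00 and 2.55 against 9.50, 10.28, 9.35 and 8.39. Of 22 annexins and S100 genes 8 rose and 3 fell: Anxa6, Anxa3 and Anxa1 rose by 4.00, 3.24 and 2.99, while the enterocyte annexin Anxa13 and the calcium carrier S100g fell by 5.16 and 5.08.

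Of 25 interstitial matrix genes 4 rose, Efemp1, Fn1, Thbs1 and Ecm1, and none fell. Fn1, fibronectin, was at 3.33 and 3.38 alone and at 9.91, 10.61, 8.76 and 8.92 in adenoma. Efemp1, a fibulin, was at 3.43 and 4.16 against 9.81 to 10.43. In the myofibroblast cultures Fn1 was at 12.57 to 13.12 and Efemp1 at 3.95 to 5.97. Col1a1 was not among the 4 (0.11, adjusted p = 0.675), and fibroblast marker levels are given with the sample checks. The part of stromal cells in these rises was not tested. Of 24 basement membrane genes 7 rose: the laminin chains Lama5 and Lamb2 by 4.10 and 2.52, the ligand Npnt by 3.32, and Col18a1 and Hspg2 by 1.96 and 1.46. Nid1, which links laminin to collagen, fell by 1.50. Among 23 proteases and inhibitors 9 rose and none fell: Timp2 was at 4.86 and 5.10 against 9.97, 10.14, 10.34 and 10.23, Plau and its receptor Plaur rose by 3.11 and 2.32, and Timp3 was at 8.65 and 9.39 in the T2 pair and 6.03 and 5.48 in the other, against 4.16 and 3.91 alone. Of 24 matrix receptors 10 rose and 2 fell, with Cd44, Bcam and Itgb6 up by 3.78, 3.23 and 2.93 and Itgb5 down by 1.90.

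Genes of epithelial structure moved in both directions. Of 14 keratins 6 rose and 1 fell: Krt20, the keratin of mature surface cells, went from 12.26 and 12.19 to 6.51, 7.30, 8.52 and 7.99, while Krt80 and Krt4 rose by 3.91 and 2.70 and Krt8 (-0.05) and Krt19 (0.07) were not called. Of 31 junction genes 8 fell and 2 rose. Cldn15, a claudin of small intestinal pores, was at 10.79 and 11.06 alone, 7.72 and 7.21 in P21 and P23, and 3.78 and 4.05 in P34 and P36. Cldn3 kept 11.40 and 11.28 in the T2 pair, beside 11.75 and 11.80 alone, and was at 4.15 and 4.26 in the other. Of 18 regulators of the epithelial or mesenchymal state 4 rose, the epithelial factors Grhl1 (2.36), Grhl2 (1.29), Ehf (1.29) and the splicing factor Esrp1 (0.69), and 2 fell, Prrx1 (-2.35) and Ovol1 (-1.91). Vim, vimentin, was at 5.33 and 5.03 against 4.69 to 5.08 and was not called. Acta2, smooth muscle actin, rose by 1.19, from 4.92 and 5.39 to 5.57, 6.13, 7.04 and 6.65, beside 10 smooth muscle markers whose mean level was 3.62 and 3.64 alone and 3.63 to 3.69 in adenoma.

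In the Notch pathway, which keeps progenitors from the secretory fate, 7 of 22 rose and 3 fell: the receptor Notch2, the ligand Jag2 and the modifier Lfng rose by 2.61, 2.20 and 2.16, while the ligand Dll1 fell by 2.94. In the BMP and TGF-beta list 10 of 36 rose and 5 fell. Fst, follistatin, which traps activins, was at 3.22 and 3.13 against 7.27, 7.43, 7.67 and 6.46, the ligand Tgfb3 rose by 3.60, Tgfbr2 by 2.13 and the target Id1 by 1.61, and Tgfbi fell by 4.83. Smad4 was not called (-0.27). Of 25 EGF and MAPK feedback genes 9 rose and 2 fell. Phlda1, Etv5, Spry2 and the receptor brake Lrig1 rose by 2.44, 1.89, 1.42 and 1.29, and the receptor Erbb3 fell by 1.51. Dusp6, a MAPK phosphatase, was at 8.97 and 8.93 alone, 9.53 and 9.84 in the T2 pair and 7.84 and 7.04 in the other (2.24 between the pairs, adjusted p = 0.00022).

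Prostaglandin genes moved in both directions. Ptgs2, the inducible cyclooxygenase, was at 2.49 and 3.13 alone and at 6.17, 6.69, 9.64 and 8.43 in adenoma, and Pla2g4a, which frees its substrate, rose by 4.68. The exporter Abcc4 rose by 2.93. Hpgd, which degrades prostaglandin E2, and its importer Slco2a1 fell by 1.88 and 2.98. Ptges, the inducible synthase, was at 3.87 and 4.23 against 3.59 to 3.84 and was not called. In all, 4 of 14 rose and 5 fell. Of 31 cytokine and chemokine genes 5 rose and 8 fell: the receptor Il1r1 was at 2.91 and 2.21 against 7.13 to 7.66, Ccl2 and Csf1 rose by 3.08 and 1.96, and Ccl25 and Ccl28, which attract gut lymphocytes, fell by 4.03 and 2.62. Of 23 interferon genes 3 rose and 5 fell, with Bst2 up by 2.70 and the factors Irf8, Irf7 and Irf1 down by 3.00, 2.63 and 1.23. Of 15 antigen presentation genes 4 fell, including B2m, from 12.20 and 12.21 to between 10.83 and 11.42.

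Other lists held few calls. Among 31 Hox genes 3 fell, Hoxa2 (-1.05), Hoxa3 (-0.94) and Hoxd13 (-0.56), all from levels in epithelium alone of 4.39 or less for Hoxa2 and lower for the others. Plagl1 and Hmga2 rose by 2.29 and 1.62 among 12 imprinted and oncofetal genes, and Igf2 was at 6.94 in P28, 3.73 in P30 and 3.52 to 4.00 in adenoma. Of 17 further proto-oncogenes and tumour suppressors 5 rose, among them the mismatch repair gene Msh6 (2.25) and Akt1 (0.96), and Kit fell by 2.62. Of 14 immune markers, Cd68 and Cd14 rose by 2.35 and 1.76 while Itgam and Adgre1 fell by 2.05 and 0.58, and the list mean was 3.77 and 3.85 alone and 3.70 to 3.91 in adenoma. The part of immune cells in the 2 rises was not tested. With higher and lower genes counted together, several lists had a share called near or under that of all genes. They were Wnt machinery, BMP and TGF-beta, interstitial matrix, interferon response, epithelial and mesenchymal regulators, cholesterol synthesis and Hox genes. The same held for Notch, EGF and MAPK feedback, basement membrane, cell junctions, cytokines and chemokines, and stomach genes over all adenoma animals. It held as well for antigen presentation, imprinted and oncofetal genes, further proto-oncogenes and tumour suppressors, and immune markers. Taken 1 way alone, some shares in these lists were above those of all genes. Of EGF and MAPK feedback genes 9 of 25 were higher and of Notch genes 7 of 22, beside 22.5% of all genes. Nothing is read from the counts of these lists.

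Set against the same mice's epithelium grown with myofibroblasts, adenoma differed at fewer genes: 3439 higher (19%) and 2583 lower (14.3%), or 2222 and 1642 without the P28 co-culture. With cyclic loess the balance turned, to 2729 higher and 3109 lower. Both comparisons share the adenoma samples, so their values are given side by side only. The median of the mitosis list was 3.24 against epithelium alone and 1.97 against co-culture, and for DNA replication 2.59 and 1.89. For YAP genes these medians were 1.58 and 0.59 and for fetal and repair genes 2.57 and 0.84. The fall of brush border hydrolases was -6.11 and -5.04. Some lists turned or shrank against co-culture. Of 22 annexins and S100 genes 3 were higher and 8 lower, with a median of -0.33, beside 0.06 against epithelium alone. Of 14 keratins 1 was higher and 1 lower, with medians of -0.04 and 0.64 in that order. Of 32 respiratory chain genes none was higher and 7 were lower, with medians of -0.23 and -0.53. Krt4 was at 5.52 and 6.88 alone, 9.65 and 9.68 in co-culture and 8.23 to 9.68 in adenoma, and Anxa3 at 8.17 and 8.99, 10.83 and 11.14, and 11.76 to 11.89. Msn, at 3.77 and 3.59 in co-culture, Gabrp, at 2.20 and 2.89, and Fn1, at 3.15 and 3.26, had co-culture levels near those of epithelium alone.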

How the data were processed

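RNA from 14 biological samples on 16 one-colour whole-transcript arrays was analysed from the deposited log2 probe set values. RMA is the tool listed for them in the submitters' processing notes. For its version, the array definition and the genome build, the sources used here give nothing. The labels state 150 ng of RNA as input. The number of arrays limits the precision. Of 41345 probe sets, 23521 had 1 gene symbol, 1814 several and 16010 were unnamed here. Symbols are those of the platform annotation and can be old, and probe sets of near-identical genes can share signal. For a gene with several probe sets, the brightest over all samples stood for it. Genes whose highest group mean was at or under the 30th percentile of probe set means were left out, which kept 18095 of 22180. Repeat arrays of P21 and P34 were averaged. The repeat notes of P34 name arrays other than its own, so the shared animal number was used.

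limma 3.58.1 in R 4.3.3 was fitted to all 5 groups, which share 1 estimate of spread, with 2-sided moderated tests and Benjamini-Hochberg adjustment. The fit was tested on simulated data. Epithelium alone and in co-culture came from the same 2 mice by their labels, but no adenoma animal is paired with a wild-type one. A fit with the animal as a random block had a within-animal correlation of 0.46. Co-culture was a second control, and with the myofibroblasts it also entered the filter, the choice of probe set and the estimate of spread. Promoters came from RefSeq (GRCm38.p6).

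The genes and lists were chosen with earlier results of these data known. Named genes were the 15 largest rises and falls with both means above dim, the 5 largest each way with 1 mean at or under it, up to 6 called and 2 uncalled members per list, all Wnt machinery, intestinal factor and p53 genes, the 6 genes with the largest range among adenomas each way, and Apc, Lgr5, Epcam, Vim, Acta2, Col1a1, Xist and Eif2s3y. Named outside this rule, after their values were seen, were Ptprc, Cd68, Cd14, Itgam, Adgre1, Habp2, Muc1, Cldn18, Tff1, Muc5ac, Gkn2, Sox2, Trp63, Barx1, Nkd1, Rnf43, Znrf3, Myc, Lef1, Prox1, Efnb1, Bambi, Apcdd1, Wif1, Rb1 and Mcm7. Alternatives covered the filter, normalisation, prior, probe set choice, threshold, groups in the fit, repeats, animals and the T2 split, the last of which was chosen after seeing the data, as was leaving out P28 for its Xist level.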

Additional observations from a re-analysis of the deposited data

Results flagged for a closer look

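In 14 of 295 named genes and 1 of 48 list means, 1 adenoma animal stood apart from the other 3, with a gap to the nearest of them above Dixon's critical value for 4 samples. Chance alone flags about 1 in 20 groups of 4. P36 stood apart in 6 cases. It was lowest for Alpi at 5.72, Cdhr2 at 5.77, Ecm1 at 7.48, Gata5 at 10.11 and Tph1 at 2.35, and highest for Adgre1 at 2.93. P34 was highest for Anxa1 at 11.92, Npnt at 9.74 and Ptges at 3.84, and lowest for Nuf2 at 8.40. P23 was highest for Akt1 at 10.75, Rrm2 at 9.72 and the mean of the integrin and matrix receptor list at 7.60. P21 was lowest for Ccne1 at 7.48 and highest for Dcxr at 7.52. In Cdhr2, a microvillus protocadherin, the gap lay between 5.77 in P36 and 7.22 in the next animal, and all 4 animals were below both epithelium cultures.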

How the results depend on the processing

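Among the 236 named genes that were called, 0 changed direction under the 23 settings run and 43 lost the call under at least 1, while 33 of those not called gained one under at least 1. Asking for a difference of at least 1 left 2382 higher and 1773 lower against epithelium alone, and 1641 and 1333 against co-culture. Leaving out 1 sample gave 3185 to 3970 higher and 2545 to 3235 lower against epithelium alone, and 2222 to 3332 and 1642 to 2482 against co-culture, with the lowest values without P28. With the replicate block, the animal as a random block, 4032 were higher and 3299 lower (3427 and 2559 against co-culture). Cyclic loess gave 3494 and 3873 (2729 and 3109 against co-culture), so the share higher among calls was smaller in both. Differences of genes not called changed sign as follows, and the cause was not tested. With cyclic loess they were -0.07 for Btg2, -0.06 for Col1a1, -0.02 for Ezr and -0.09 for Krt19. With each array centred on its median they were 0.03 for Bbc3, Gapdh and Gsk3b and 0.00 for Krt8, and with the mean of all probe sets 0.01 for Dusp6. With P34 and P36 alone they were -0.15 for Bop1, -0.40 for Lef1 and 0.10 for Tcf7l2. With P21 and P23 alone they were -0.14 for Apc, 0.08 for Bbc3, -0.01 for Col1a1, 0.74 for Dusp6, -0.01 for Ezr, 0.17 for Gsk3b, -0.43 for Klf4, 0.05 for Krt8, 0.35 for Lyz1, 2.80 for Mmp7 and -0.18 for Sox2. The fit of 6 groups, chosen after seeing the data, gave the same values for both pairs. Leaving out 1 sample at a time gave ranges of both signs for these uncalled genes: -0.19 (without P30) to 0.14 (without P28) for Bbc3, -0.03 (without P30) to 0.24 (without P28) for Col1a1, -0.20 (without P28) to 4.88 (without P30) for Eif2s3y, -0.06 (without P28) to 0.02 (without P30) for Gapdh, -0.53 (without P28) to 0.30 (without P30) for Pdk4, -0.81 (without P23) to 0.12 (without P36) for Dusp6, -0.09 (without P21) to 0.04 (without P36) for Gsk3b, -0.10 (without P23) to 0.01 (without P36) for Krt8 and -2.14 (without P23) to 0.39 (without P36) for Mmp7. Levels near dim limit the size of falls, and 2 epithelium cultures limit every comparison.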
